A study of Mus musculus with 18 samples.

Results

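Sntb1, Mreg, Slc16a1, Ptgis, Tspan4 and Rhobtb1 were 6 mouse liver genes picked for a large difference in their response to CMPF, a metabolite of furan fatty acids found in blood, between 2 diet models. The choice rested on the effect of CMPF given after the start of a high-fat diet (HFD) minus its effect when given before the diet. The fit used here tested 13228 genes. The platform table paired 13 of 45037 probe sets (groups of short DNA probes read together as 1 signal) with exactly 1 of these symbols, and 11 of the 13 passed the filter on low signals. Sntb1, Mreg and Slc16a1 were higher with CMPF in the prevention model and lower with it in the reversal model. Ptgis, Tspan4 and Rhobtb1 were higher with it in reversal. Their prevention effects were -0.29 ± 0.15, -0.20 ± 0.12 and -0.16 ± 0.21 (log2 ± SE). Since the genes were picked on this contrast, their CMPF values are a description and carry no test. Across all genes, none reached an adjusted p under 0.05 for the difference (0%; limma), and 1048 had an unadjusted p under 0.05.

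The livers came from wildtype CD1 mice of a commercial breeder, and every mouse was either a chow control (labelled Control-Chow or Chow-Control) or was fed a diet with 60% of its energy from fat. In the prevention model mice had 1 week of vehicle (Control-HFD) or of CMPF at 6 mg per kg per day (CMPF-HFD), followed by HFD for 4 weeks, given as up to 5 weeks in the series text. The reversal model put the diet first, for 6 weeks, and then 2 weeks of vehicle (HFD-Control) or of the same dose of CMPF (HFD-CMPF) by injection. The chow controls of each model had a CMPF dose of 0 and the same treatment and diet weeks as its HFD groups. Each of the 6 groups had 3 arrays. Sex and age are not given in the sources used here, nor is it stated that the 3 arrays of a group came from 3 mice, so every p measures the spread between arrays, which may be technical. CMPF-HFD arrays 2 and 3 were nearly identical, with 0 genes over 2-fold apart against at least 115 in any other pair, and they were averaged into 1 sample, which leaves n = 2 in that group and 17 samples in all.

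Values are RMA signals on the log2 scale, so a step of 1 is a doubling. The mean of an array was 5.08 to 5.10 in prevention and 5.25 to 5.26 in reversal, so levels cannot be set against each other between the models, and effects were taken within each model first. RNA integrity was read from control probe sets at both ends of a transcript: their 3' to 5' index rises with degradation. Prevention chow had a mean index of 1.43 ± 0.512 (SD, n = 3), and the other 5 groups had means from 2.62 to 3.15. Chow 2 of the reversal model stood apart with a median correlation of 0.948 with its model's other arrays, the lowest of the 18. The hepatocyte genes Alb (14.52), Apoa1 (14.30) and Ttr (14.32) had mean signals near the top of the scale, and 0 of 2 adipocyte markers with a probe set passed the filter. In whole liver, fewer cells of a type and less RNA per cell cannot be told apart.

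The 6 genes belong to no common pathway. Sntb1 encodes beta-1 syntrophin, an adaptor of the dystrophin complex that also binds the lipid exporter ABCA1, and Mreg encodes melanoregulin, which takes part in the movement and maturation of melanosomes and lysosomes. Slc16a1 encodes MCT1, which carries lactate, pyruvate and ketone bodies across the plasma membrane with a proton. Ptgis encodes prostacyclin synthase, a cytochrome P450 that turns prostaglandin H2 into prostacyclin, a vasodilator that also restrains platelets. Tspan4 encodes a tetraspanin, a membrane protein that gathers into microdomains and is abundant on migrasomes. Rhobtb1 encodes a substrate adaptor of cullin 3 ubiquitin ligases.

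Promoter sequence is shown because Mreg and Slc16a1 had the same pattern. RefSeq windows on build GRCm38.p6 were found for 4 of the 6 genes, and those of Mreg and Slc16a1, the most upstream of 2 start sites for Mreg and the single one for Slc16a1, are printed as the 250 bases before the start site, 5′ to 3′ on the gene's strand. Capitals mark matches, on either strand and with no overlap between motifs, to any of the motifs searched. The E-box, read by basic helix-loop-helix factors, was searched as CACGTG. The half-site shared by many nuclear receptors was searched as AGGTCA. The CCAAT box was searched by the letters of its name.
Mreg, chr1:72212315-72212564, minus strand: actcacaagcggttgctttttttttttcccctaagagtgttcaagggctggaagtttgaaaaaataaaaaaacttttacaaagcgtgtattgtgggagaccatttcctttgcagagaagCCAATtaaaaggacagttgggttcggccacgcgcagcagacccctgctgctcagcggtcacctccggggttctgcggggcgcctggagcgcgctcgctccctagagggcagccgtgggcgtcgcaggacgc
Slc16a1, chr3:104638414-104638663, plus strand: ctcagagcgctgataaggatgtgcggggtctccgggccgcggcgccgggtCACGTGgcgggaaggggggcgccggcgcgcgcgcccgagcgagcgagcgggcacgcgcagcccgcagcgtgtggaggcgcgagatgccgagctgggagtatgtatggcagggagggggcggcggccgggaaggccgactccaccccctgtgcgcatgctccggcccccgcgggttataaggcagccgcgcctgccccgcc
The Mreg window held 1 CCAAT box and the Slc16a1 window 1 E-box, and neither held the half-site. Among all 32851 windows of this length, 6.02% held the E-box, 14.0% the half-site and 33.8% the CCAAT box. GC content was 54.4% for Mreg and 76.4% for Slc16a1, against a median of 52.4%. At the start sites listed for Tspan4 (2) and Rhobtb1 (3), 1 window of each gene held the E-box and none held the half-site. So the half-site was absent from the windows of all 4 genes. The E-box was in the single Slc16a1 window, and in 1 of 2 Tspan4 and 1 of 3 Rhobtb1 windows, not the most upstream ones. The most upstream Rhobtb1 window held a CCAAT box. The shares of all windows are per window and not per gene. A match is a description of letters, not of binding.

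The first group holds the genes that were higher with CMPF given before the diet and lower with CMPF given after it. Slc16a1 had the largest difference. In prevention its signals were 9.90, 9.46 and 9.87 on chow, 8.24, 8.37 and 8.14 on HFD with vehicle, and 9.05, 9.17 and 9.01 on HFD with CMPF. In reversal they were 10.68, 10.22 and 10.55 on chow, 10.05, 10.10 and 9.58 on HFD with vehicle, and 9.27, 8.84 and 9.43 on HFD with CMPF. In prevention the CMPF arrays thus lay between the vehicle and the chow arrays with no overlap, whereas in reversal they lay below both. The CMPF effect (log2 ± SE) was 0.82 ± 0.21 in prevention and -0.73 ± 0.19 in reversal, a difference of -1.55 ± 0.28.

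Sntb1 ranked first of all genes by the p of the difference. Its signals in prevention were 9.37, 8.98 and 8.97 on chow, 8.22, 8.50 and 8.20 with vehicle on HFD and 9.06, 9.39 and 9.31 with CMPF on HFD. The reversal signals were 9.43, 9.28 and 9.15 on chow, 9.54, 9.61 and 9.36 with vehicle and 9.21, 9.06 and 9.03 with CMPF. The CMPF arrays therefore overlapped the chow arrays in both models and were separate from the vehicle arrays, above them in prevention and below them in reversal. The effect was 0.90 ± 0.15 in prevention and -0.40 ± 0.14 in reversal, and the difference was -1.30 ± 0.21.

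Mreg was measured by 1 probe set. On HFD in prevention it stood at 9.32, 9.73 and 9.37 with vehicle and at 9.88, 10.22 and 10.19 with CMPF, beside 9.73, 9.69 and 9.69 on chow. In reversal it stood at 10.88, 11.02 and 10.94 with vehicle and at 10.30, 10.05 and 10.20 with CMPF, beside 11.23, 10.63 and 10.99 on chow. Here the vehicle groups overlapped chow in both models, and only the CMPF groups were apart from it, higher in prevention and lower in reversal. The effect was 0.57 ± 0.17 in prevention and -0.76 ± 0.15 in reversal, with a difference of -1.33 ± 0.23.

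**Figure D1:**
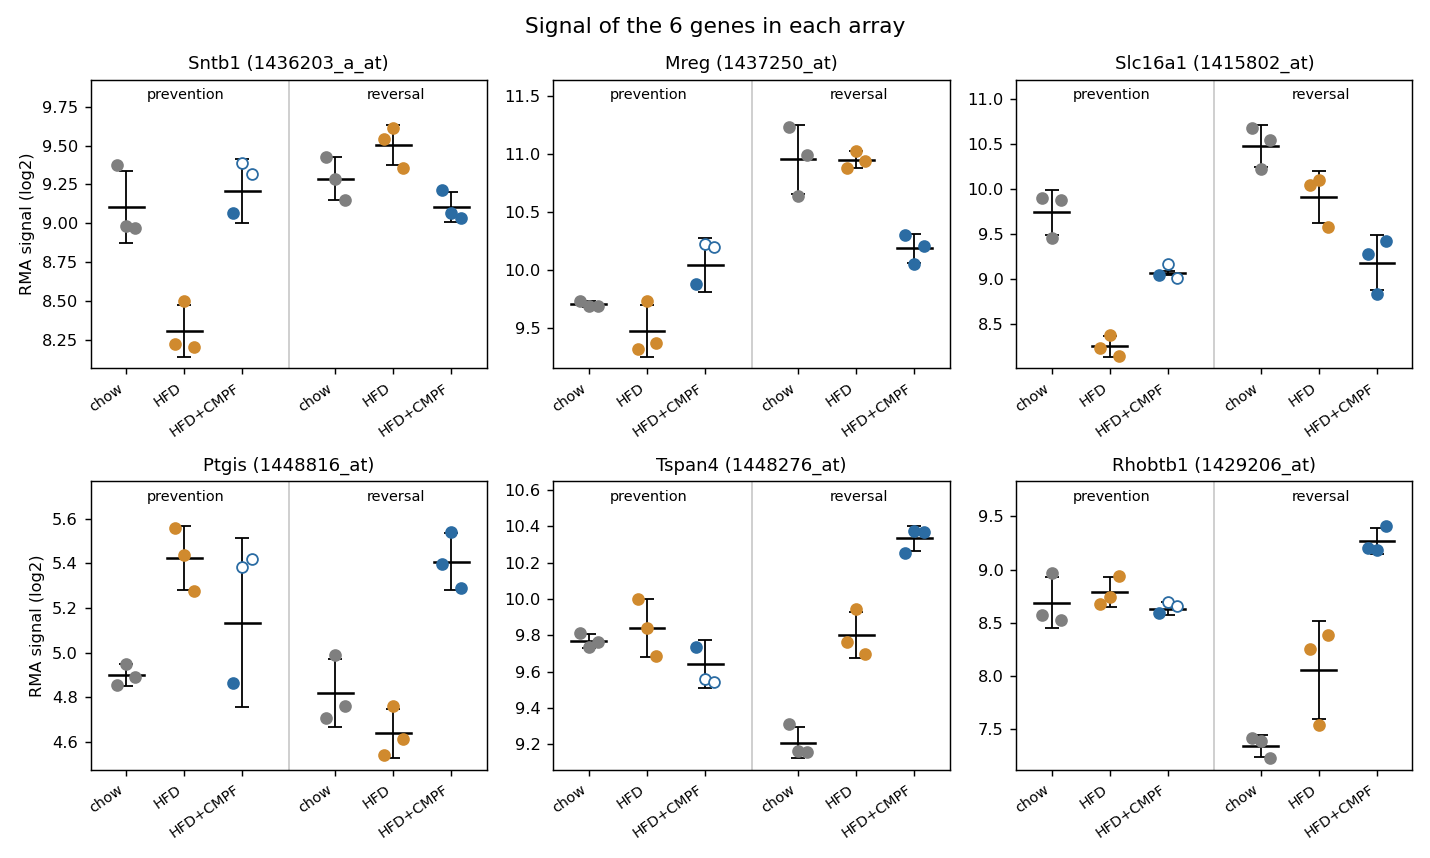
RMA signal (log2, vertical axis, a range of its own in each panel) of the probe set used for each gene, in the 3 groups of each model; points are arrays, bars are group means ± SD, and the open points of prevention HFD+CMPF are the 2 nearly identical arrays that count as 1 sample. Slc16a1, Sntb1 and Mreg are higher with CMPF than with vehicle in prevention and lower in reversal, and Rhobtb1 is at 9.18 to 9.41 with CMPF in reversal against 7.53 to 8.39 with vehicle.

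The second group was higher with CMPF in reversal, with small or overlapping differences in prevention. Rhobtb1 had the largest reversal effect, 1.21 ± 0.19, a 2.31-fold higher signal. Its reversal signals were 7.41, 7.38 and 7.22 on chow, 8.25, 7.53 and 8.39 on HFD with vehicle and 9.21, 9.18 and 9.41 on HFD with CMPF. At this probe set the 3 groups formed a series with no overlap, chow lowest and CMPF highest. Chow and vehicle overlapped at the second probe set of the gene. In prevention all 9 arrays lay between 8.53 and 8.97, the effect was -0.16 ± 0.21, and the CMPF samples lay below the vehicle arrays only after arrays 2 and 3 (8.70 and 8.66) were averaged, since the lowest vehicle array was at 8.68. The difference was 1.36 ± 0.28, and 1.10 without reversal HFD 2, the vehicle array at 7.53.

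Tspan4 showed the same order in reversal. Signals were 9.31, 9.16 and 9.16 on chow, 9.76, 9.94 and 9.70 with vehicle on HFD and 10.25, 10.37 and 10.37 with CMPF, again with no overlap. Prevention signals were 9.81, 9.73 and 9.76 on chow, 10.001, 9.84 and 9.68 with vehicle and 9.73, 9.56 and 9.54 with CMPF, and neighbouring groups overlapped. The effect was -0.20 ± 0.12 in prevention and 0.53 ± 0.10 in reversal, a difference of 0.73 ± 0.16, the smallest of the 6.

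Ptgis had a low signal, with a mean of 5.07 over all arrays where the filter lay at 4.01. Its reversal signals were 4.70, 4.99 and 4.76 on chow, 4.54, 4.76 and 4.61 with vehicle and 5.39, 5.54 and 5.29 with CMPF. Only the CMPF group was apart there, above both others. In prevention the signals were 4.85, 4.95 and 4.89 on chow, 5.56, 5.44 and 5.28 with vehicle and 4.87, 5.38 and 5.42 with CMPF, so that CMPF array 1 was at the chow level and arrays 2 and 3 at the vehicle level. The effect was -0.29 ± 0.15 in prevention and 0.77 ± 0.14 in reversal. The difference of 1.06 ± 0.21 was 0.79 without CMPF array 1 and 1.33 without arrays 2 and 3.

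Counted over the 6 genes, CMPF and vehicle groups did not overlap for 4 in prevention, where 30.7% of all genes were separated in this way with 2 samples against 3, and for 6 in reversal, against 8.82% of all genes. Separate groups that were higher in prevention and lower in reversal were found for Sntb1, Mreg and Slc16a1 and for 1.22% of all genes. The reverse was found for Rhobtb1, by the narrow margin given above, and for 0.559% of all genes. Groups separate in reversal and overlapping in prevention were found for Ptgis and Tspan4 and for 6.18% of all genes. The 2 effects had opposite signs for 6 of 6 genes and for 56.2% of all genes. These counts restate the choice of the genes. By p of the difference the genes ranked 1 (Sntb1), 2 (Mreg), 3 (Slc16a1), 5 (Ptgis), 8 (Rhobtb1) and 13 (Tspan4). Next to them in that ranking, and not among the 6, were Cox15 at 4 (-0.81 ± 0.15), Ccdc47 at 6 (-0.87 ± 0.17), Efr3a at 7 (-1.06 ± 0.22), Pparg at 9 (-1.27 ± 0.26), Capn7 at 10 (-0.80 ± 0.17), Slc33a1 at 11 (-1.17 ± 0.25), Zfp266 at 12 (-0.92 ± 0.20) and Tmem120a at 14 (1.00 ± 0.21). Several of these differences were as large as those of the 6 genes.

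**Figure D2:**
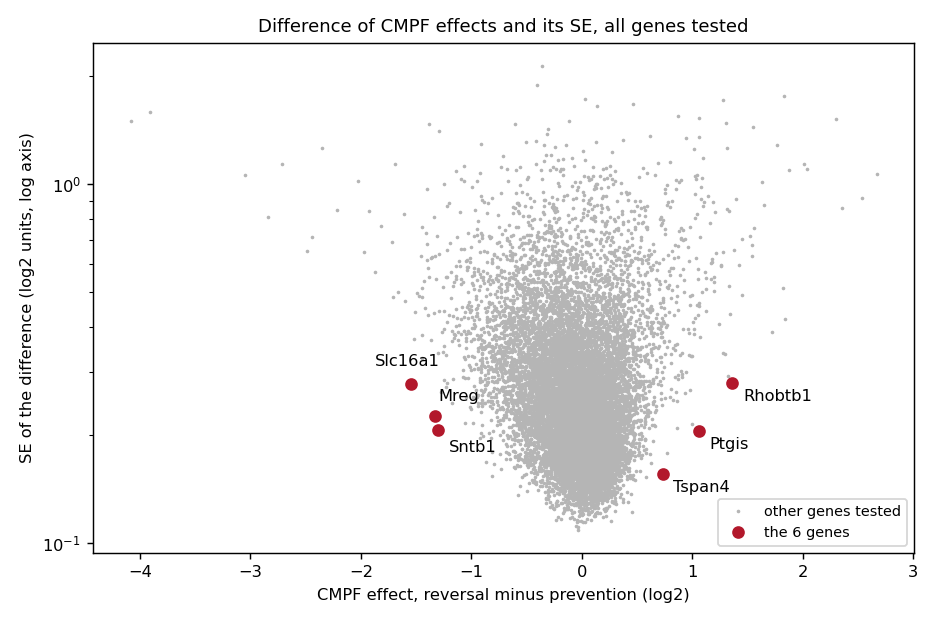
Difference of the CMPF effects, reversal minus prevention (log2, horizontal axis), and its SE (log2 units, log axis) for the 13228 genes tested, with the 6 genes in red. They lie at the lower outer edge of the cloud, from -1.55 for Slc16a1 to 1.36 for Rhobtb1, and genes with larger differences have larger SEs.

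Several probe sets read the same gene, and they offered a second look within the same RNA. These values come from a fit over all 45037 probe sets, with SEs that differ slightly from those above. Of the 6 probe sets of Sntb1, 4 had the pattern, with CMPF effects from 0.70 ± 0.16 to 0.90 ± 0.15 in prevention and from -0.53 ± 0.18 to -0.37 ± 0.14 in reversal, and with vehicle and CMPF groups apart in both models. The other 2 were dim (means of 4.33 and 3.64, the latter below the filter) and had differences of 0.04 ± 0.20 and 0.02 ± 0.18. The second probe set of Rhobtb1, with a mean of 6.94, gave -0.24 ± 0.32 in prevention and 0.96 ± 0.29 in reversal. Its vehicle and CMPF groups overlapped in prevention only. Its chow and vehicle groups overlapped in reversal, at 6.18 to 6.63 and 6.48 to 7.50. The second probe set of Slc16a1 had a mean of 3.10, below the filter, and a difference of -0.03 ± 0.14. Thus the brighter probe sets had the pattern of their gene and the dim ones had differences near 0. Probe sets of 1 gene share the same RNA, and those of Sntb1 can share probes, so they are not replicates.

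**Figure D3:**
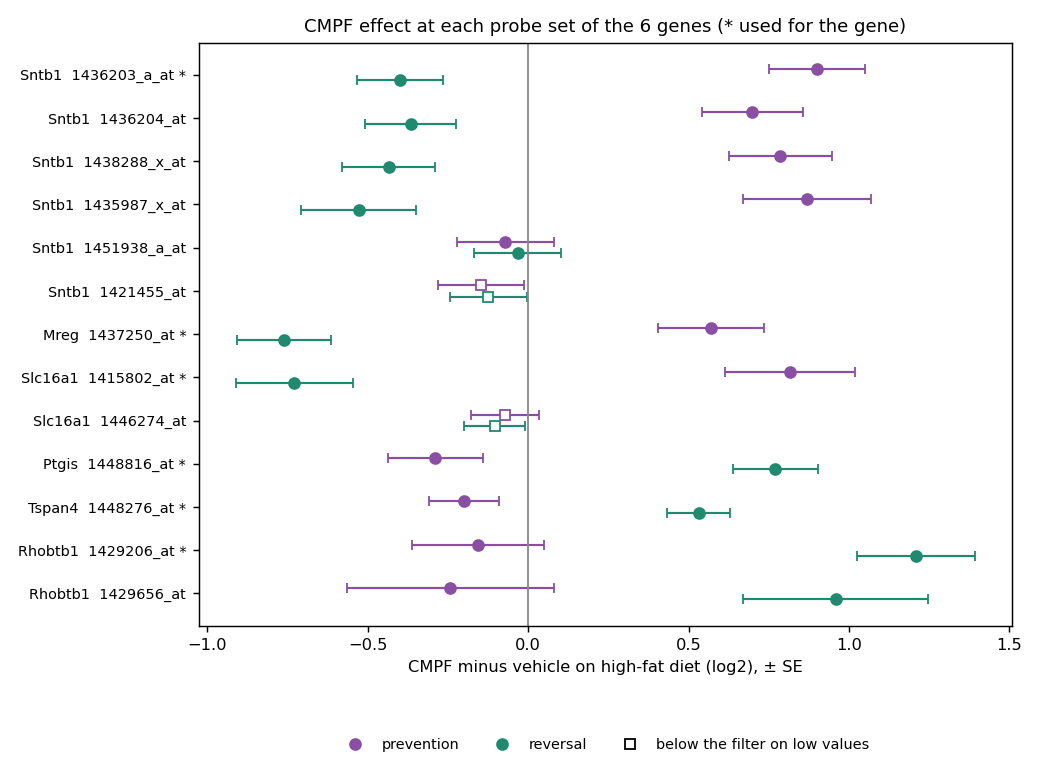
CMPF minus vehicle on HFD (log2, points) ± SE (bars) at each of the 13 probe sets, with prevention in purple, reversal in green and open squares for the 2 probe sets below the filter. The 4 bright probe sets of Sntb1 lie at 0.70 or more in prevention and at -0.37 or less in reversal, while its 2 dim ones lie near 0.

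HFD against chow in vehicle mice is another contrast than the one that chose the genes, but it uses the same vehicle arrays, so its values are not independent of the choice of the genes. A low vehicle value enters the CMPF effect and the HFD effect with opposite signs, and the choice therefore favours HFD effects opposite to the CMPF effects. The p values and counts for these 6 genes are given with that limit, and nothing is read from their share against that of all genes. In prevention, Slc16a1 fell by 1.49 on the log2 scale (SE 0.19, adjusted p = 0.00628), a 2.81-fold lower signal. Sntb1 fell by 0.80 (SE 0.14, adjusted p = 0.0121). At the other bright probe sets of Sntb1 the effect was -0.62 ± 0.14, -0.49 ± 0.14 and -0.39 ± 0.18, the last with overlapping groups. Ptgis rose by 0.53 ± 0.14 (adjusted p = 0.0410). These 3 of 6 genes stood beside 5.57% of all genes that passed, with 1.74% of all genes higher and 3.83% lower. The same 3 had chow and HFD groups that did not overlap, as did 29.2% of all genes. Mreg (-0.23 ± 0.15, adjusted p = 0.370), Tspan4 (0.07 ± 0.10, 0.711) and Rhobtb1 (0.10 ± 0.19, 0.785) did not pass. The 3' to 5' index moved with this comparison, with group means of 1.43 in prevention chow and 2.84 in prevention HFD. In a fit with the index as a covariate, Slc16a1 was at -1.19 (adjusted p = 0.0450), Sntb1 at -0.73 (0.116) and Ptgis at 0.42 (0.321).

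The Slc16a1 call held under all 26 alternatives that were run, with adjusted p from 0.00310 to 0.0450. The Sntb1 call was lost without prevention chow 1, chow 3 or HFD 1 (adjusted p from 0.0540 to 0.0712) and in a fit of the 6 arrays compared (0.0509). Ptgis lost its call in that fit (0.0564) and without any 1 of prevention chow 1 and 3, prevention HFD 1, 2 and 3, reversal chow 3, reversal HFD 3 and reversal CMPF 1 (0.0526 to 0.146).

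In reversal, Tspan4 rose by 0.59 ± 0.10 with HFD (adjusted p = 0.0133), as 1 of the 6 genes beside 2.45% of all genes, or 2.17% counted in the upward direction. Chow and HFD groups did not overlap for Slc16a1, Tspan4 and Rhobtb1 and for 23.3% of all genes. They overlapped at the second probe set of Rhobtb1 (0.72 ± 0.29). Rhobtb1 was at 0.72 ± 0.19 (adjusted p = 0.0586) and reached 0.98 (0.00766) without reversal HFD 2. It also passed with all 18 arrays counted (0.0414). Slc16a1 was at -0.57 ± 0.19 (0.106), Sntb1 at 0.22 ± 0.14 (0.357), Ptgis at -0.18 ± 0.14 (0.442) and Mreg at -0.00 ± 0.15 (0.988). The Tspan4 call was lost with quantile normalization over all arrays (0.37, adjusted p = 0.123), in a fit of the 6 arrays compared (0.164) and without reversal HFD 1 and reversal CMPF 3, the HFD arrays with the lowest index (0.0513). Slc16a1 passed in reversal too with quantile normalization (-0.79, adjusted p = 0.0291) and with the index as a covariate (0.0407).

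The difference of the HFD effects, reversal minus prevention, uses the vehicle arrays of both models, as the choice of the genes did, with the opposite sign. It passed for 4 of 6 genes, a count from which nothing is read, beside 11% of all genes (8.84% with a higher value in reversal and 2.14% with a lower one). The value was 1.02 for Sntb1, 0.92 for Slc16a1 and 0.52 for Tspan4, and -0.71 for Ptgis. At the other bright probe sets of Sntb1 it was 0.93 ± 0.20, 0.48 ± 0.20 and 0.25 ± 0.25. The choice favours values opposite in sign to the difference of the CMPF effects, as those of Sntb1, Slc16a1 and Ptgis were. For Tspan4 both differences were positive, so its call is not favoured through the sign. Both differences share 1 fitted spread per gene, so a choice that favours a low spread favours this call too. Mreg (0.23 ± 0.21, adjusted p = 0.495) and Rhobtb1 (0.62 ± 0.26, 0.129) did not pass. None of the 4 calls held without prevention chow 1, or with the index as a covariate, where the values were 0.92 for Sntb1, 0.50 for Slc16a1, 0.50 for Tspan4 and -0.56 for Ptgis (adjusted p from 0.190 to 0.455).

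**Figure D4:**
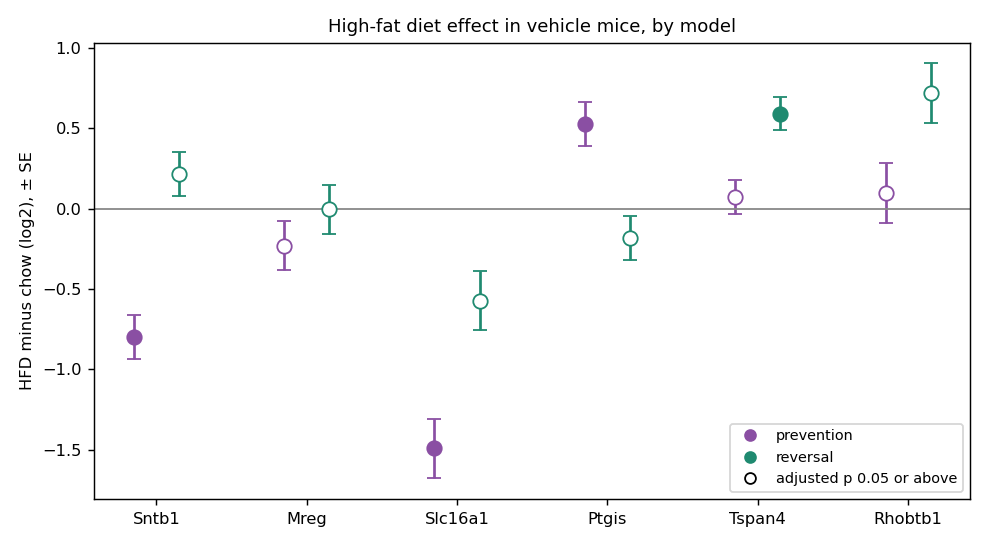
HFD minus chow in vehicle mice (log2) ± SE for each gene, prevention in purple and reversal in green, filled where the adjusted p was under 0.05. Slc16a1 (-1.49), Sntb1 (-0.80) and Ptgis (0.53) are filled in prevention and Tspan4 (0.59) in reversal.

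Set beside chow rather than vehicle, the CMPF groups on HFD gave a further description. In prevention, the CMPF mean minus the chow mean was 0.10 for Sntb1, 0.34 for Mreg, -0.68 for Slc16a1, 0.24 for Ptgis, -0.13 for Tspan4 and -0.06 for Rhobtb1, with separate groups for Mreg and Slc16a1. In reversal it was -0.18, -0.77, -1.30, 0.59, 1.12 and 1.93 in the same order, with separate groups for all but Sntb1. The CMPF mean thus lay farther from the chow mean in reversal than in prevention. For Sntb1 the 2 values were small and its groups overlapped in both models. The CMPF arrays are among those that chose the genes, and the share of all genes with such values was not counted. Nothing is read from these distances or separations.

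Chow signals also differed between the models, as did the array means, so the values are not read as differences in level. Mreg was higher in reversal chow than in prevention chow by 1.25, above 99.3% of all genes, and Rhobtb1 was lower by 1.35, at percentile 0.643. Slc16a1 was higher by 0.74 (percentile 94.0) and Tspan4 differed by -0.56 (percentile 7.70), while Sntb1 (0.18) and Ptgis (-0.08) lay nearer to the median of all genes, 0.11. Which arrays were normalized together is not given, so model and processing cannot be told apart in these values, and no test was made.

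Related genes were read from 5 lists, and the CMPF difference passed for 0 genes of any list (limma). Of 13 genes of the dystrophin complex and its syntrophin partners, 8 had a positive difference, with a median of 0.05 against -0.03 over all genes and 2 at an unadjusted p under 0.05. The smallest p there was that of Dmd, dystrophin, with 0.55 in prevention, -0.36 in reversal and a difference of -0.91 ± 0.30 (adjusted p = 0.507). Among 18 genes of melanosome and lysosome-related organelle transport the median was 0.07, and Lyst, the lysosomal trafficking regulator, led with 0.46 ± 0.25 (adjusted p = 0.682). Among 18 genes of monocarboxylate transport and use the median was 0.04. Bdh1, which interconverts the ketone bodies that MCT1 carries, led with 0.50 in prevention, -0.48 in reversal and a difference of -0.99 ± 0.37 (adjusted p = 0.558).

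The prostanoid list of 14 genes had a median of 0.07, and Ptges2, a prostaglandin E synthase, led with 0.37 ± 0.19 (adjusted p = 0.670). For 20 other tetraspanins the median was -0.06, and Tspan31 led with -0.49 ± 0.20 (adjusted p = 0.569). Counts at an unadjusted p under 0.05 were 0, 2, 0 and 1 for the 4 lists after the dystrophin complex, in the order given, where 7.92% of all genes lay under it.

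For HFD in prevention 0 of 13, 4 of 18, 2 of 18, 1 of 14 and 2 of 20 genes of these lists passed, in the order above, where 5.57% of all genes did. Ldhd, D-lactate dehydrogenase, rose by 0.97 (adjusted p = 0.0166) and Slc16a12, a creatine transporter, fell by 0.70 (0.0496). Ptges2 rose by 0.49 (0.0394), and of the tetraspanins Cd151 (0.43, 0.0428) and Tspan13 (0.91, 0.0470) rose. Of the organelle list Dctn1 (0.71, 0.0410), Dctn2 (0.48, 0.0473) and Hps1 (0.59, 0.0178) rose and Ap3b1 (-0.71, 0.0287) fell. In reversal 0 genes of these 5 lists passed (limma), with 3, 2, 6, 4 and 3 at an unadjusted p under 0.05 in the order above, where 22.4% of all genes lay under it, and in neither model did any of the 13 dystrophin complex genes pass.

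Markers of other liver cells were followed because Ptgis is known from endothelial and stromal cells. For CMPF between models 0 of 7 tested endothelial, 0 of 9 stellate cell and fibroblast and 0 of 3 smooth muscle markers passed, with medians of 0.24, -0.17 and 0.40. The summed linear signal of the 8 endothelial markers with a probe set was 1761 to 2214 with vehicle and 1724 to 2043 with CMPF in prevention, and 1836 to 2437 with vehicle and 2323 to 2796 with CMPF in reversal. That of the 9 stellate cell markers was 6341 to 8134 with vehicle and 6251 to 8110 with CMPF in reversal, and 5505 to 6921 and 5125 to 6207 in prevention. The ranges overlapped in each of these comparisons. Other markers had differences of the same sign as Ptgis, Tspan4 and Rhobtb1, though 0 of them passed (limma). The 2 neutrophil markers had a median difference of 1.28, with S100a8 at -0.76 in prevention and 0.69 in reversal, and their summed signal was 94.3 to 223 with vehicle and 76.6 to 92.8 with CMPF in prevention, and 67.3 to 188 and 112 to 224 in reversal. The 8 macrophage and Kupffer cell markers had a median difference of 0.51, with 6 positive and with Marco (-0.73) and Adgre1 (-0.24) negative. Their SEs were large, from 0.73 to 1.12. Their summed signals were 2647 to 3359 with vehicle and 2458 to 3446 with CMPF in reversal, and 1306 to 6332 and 1218 to 3238 in prevention. Krt19, a cholangiocyte keratin, was at -0.29 in prevention and 0.49 in reversal, a difference of 0.77 ± 0.18 (adjusted p = 0.336), while the other 2 cholangiocyte markers tested, Epcam and Sox9, were at -0.24 and -0.10. The summed cholangiocyte signal did not overlap in reversal, at 127 to 131 with vehicle and 135 to 152 with CMPF, and overlapped in prevention, at 102 to 107 and 104 to 109. It was not the only separate sum. With CMPF the prevention sums of neutrophil and B cell markers (57.5 to 58.7 with vehicle, 45.6 to 52.1 with CMPF) were lower. That of hepatocyte markers was higher (88536 to 92418 and 92789 to 93540). The dim adipocyte sum was higher in reversal (18.9 to 20.4 and 21.4 to 25.8). The part of cell makeup in the values of the 6 genes was not tested. Over the 17 samples, each taken relative to its model's mean, the correlation of the 6 genes with the index lay between -0.40 (Slc16a1) and 0.31 (Ptgis).

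Correlations among the 6 genes over the same 17 samples largely restate how they were chosen, by differences of one sign or the other on these arrays. Pearson's r was 0.66 to 0.70 among Sntb1, Mreg and Slc16a1, 0.55 to 0.86 among Ptgis, Tspan4 and Rhobtb1, and -0.76 to -0.24 between these 2 sets. The genes most like Slc16a1 were Cldn1, a tight junction protein (r = 0.90), Fbxo21 (0.89) and Pnpla7 (0.88). Those most like Sntb1 were Ccdc47 (0.91), Mal2 (0.91) and Copa, a coatomer subunit (0.91), and those most like Mreg were Tmem64 (0.88), Ubxn2a (0.83) and Smagp (0.82). Rhobtb1 was followed most closely by Ciart, a repressor of the circadian clock (0.94), Akr1c19 (0.92) and Usp2 (0.92). The CMPF effects of these 3 genes were 0.21 in prevention and 0.86 in reversal for Ciart, -0.54 and 1.30 for Akr1c19 and -0.15 and 1.15 for Usp2, beside -0.16 and 1.21 for Rhobtb1. Tspan4 was followed by Slpi, a secreted protease inhibitor (0.88), Gda, guanine deaminase (0.87), and Saa1, an acute phase protein (0.87). Slpi was also among the nearest to Ptgis (0.80), with Sulf1 (0.87) and Crcp (0.79). These correlations are descriptions with no test.

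**Figure D5:**
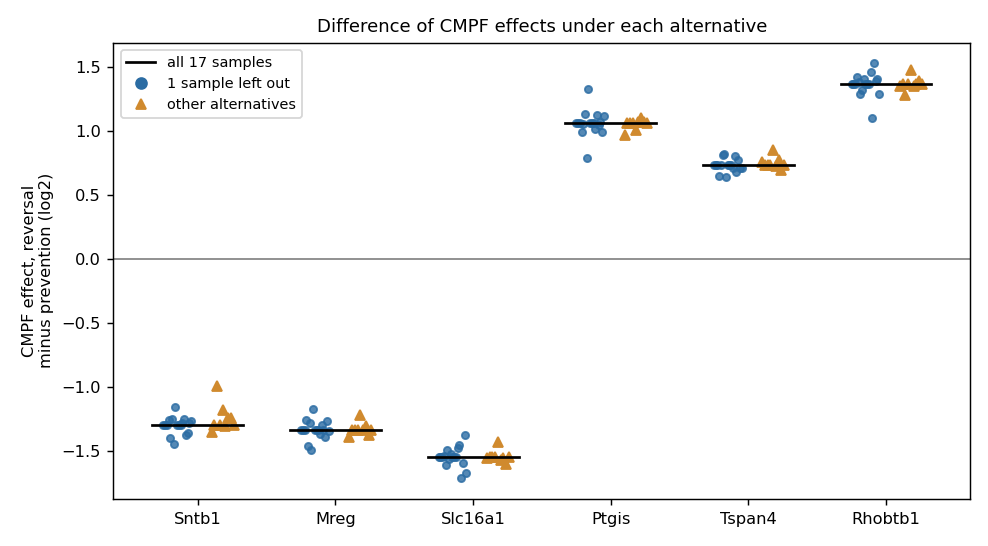
Difference of the CMPF effects (log2) for each gene with all 17 samples (black line), with 1 sample left out in turn (blue points) and under the other alternatives (orange triangles). No point crosses 0, which the choice of the genes on this difference favours. Ptgis ranges from 0.79 to 1.33 and Rhobtb1 from 1.10 to 1.53.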

How the data were processed

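The deposited values were log2 RMA signals, which the authors produced by RMA in Affymetrix Expression Console 1.1, according to the submitters' processing notes; which arrays were normalized together is not given in the sources used here. Biotin-labelled cRNA came from 200 ng of total RNA per the labels' protocols. The table held 45101 probe sets, 64 of them controls, and the platform table paired 34945 with 1 gene symbol, 932 with several and did not list 9160. Probe sets in the lowest 40% by mean signal were dropped and the brightest remaining probe set stood for each gene. The 6 group means were fitted in R 4.3.3 with limma 3.58.1 (11 residual and 3.02 prior degrees of freedom), with Benjamini-Hochberg adjustment over 13228 genes and a threshold of 0.05. The code was tested on simulated data. The number of arrays limits the precision. The members, lists, rule for named genes (3 most correlated genes per member, smallest p or passing genes per list) and tests were chosen with earlier results of these data known. Replicate numbers were not used to pair samples in the main fit. Over 18 same-number pairs the correlation of deviations from group means ran from -0.37 to 0.44, with 6 over 0.1. Different-number pairs were not set beside them, so a pairing is not excluded. Results of 1 further gene list are not reported here.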

Additional observations from a re-analysis of the deposited data

Results flagged for a closer look

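The HFD effect differed between models, by the test of that difference, for 4 of the 6 genes, where 11% of all genes passed. The vehicle arrays in this difference are also in the one that chose the genes, with the opposite sign. The choice thus favours the calls of Sntb1, Slc16a1 and Ptgis, whose HFD and CMPF differences had opposite signs. For Tspan4 both differences were positive (0.52 and 0.73), so its call is not favoured through the sign. It can still be favoured through the fitted spread, which both differences share. Nothing is read from the 4 of 6. Reversal minus prevention was 1.02 ± 0.19 for Sntb1 (adjusted p = 0.0183), 0.92 ± 0.26 for Slc16a1 (0.0405), -0.71 ± 0.19 for Ptgis (0.0362) and 0.52 ± 0.15 for Tspan4 (0.0404), from limma. All 4 calls were lost with the 3' to 5' index as a covariate (0.92, 0.50, -0.56 and 0.50, adjusted p of 0.190, 0.455, 0.339 and 0.297) and with quantile normalization over all arrays (0.67, 0.58, -0.58 and 0.16, adjusted p of 0.0538, 0.0915, 0.0611 and 0.548). All 4 were also lost without prevention chow 1, without prevention chow 3 and without reversal HFD 1. The losses over all single arrays had adjusted p from 0.0501 to 0.0561 for Sntb1 (these 3 arrays), 0.0544 to 0.105 for Slc16a1 (12 arrays or averaged pairs), 0.0516 to 0.0938 for Ptgis (10) and 0.0504 to 0.0972 for Tspan4 (11). For Slc16a1 and Ptgis these include each prevention HFD array, for Tspan4 prevention HFD 2 and 3. For all 3 genes they include reversal chow 2 and 3 and reversal CMPF 1. Reversal HFD 2 ends the calls of Slc16a1 and Tspan4, as does either sample of prevention CMPF, and reversal HFD 3 ends that of Ptgis. With each gene's probe sets averaged, Sntb1 was at 0.53 (0.0664), and its bright probe sets taken singly ran from 0.25 to 1.02.

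The CMPF effect was flagged because vehicle and CMPF groups were separate in opposite directions in the 2 models: -1.30 for Sntb1, -1.33 for Mreg, -1.55 for Slc16a1 and 1.36 for Rhobtb1 (reversal minus prevention). The genes were chosen on this difference, so it was not tested for them. For Rhobtb1 the separation in prevention rests on the averaging of arrays 2 and 3, since array 2 (8.70) was above vehicle array 1 (8.68).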

How the results depend on the processing

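The difference of the CMPF effects kept its sign for each of the 6 genes under all 26 alternatives. The genes were chosen for a large difference on these same arrays, so the kept sign was largely fixed by the choice and is no support. The difference lay between -1.44 and -0.99 for Sntb1 (the latter with its probe sets averaged), -1.50 and -1.17 for Mreg, -1.71 and -1.37 for Slc16a1, 0.79 and 1.33 for Ptgis, 0.64 and 0.85 for Tspan4, and 1.10 and 1.53 for Rhobtb1. The count of genes with a different CMPF effect was 0 under every alternative but 1: without reversal HFD 1 and reversal CMPF 3, chosen after seeing the data, Ugt2b37 passed (1 gene, -2.41, adjusted p = 0.0123). It was 0 to 0 with samples left out in turn. HFD counts rested on single arrays. In prevention the count was 737, and leaving out chow 1, 2 or 3 gave 12, 1624 or 8, HFD 1, 2 or 3 gave 25, 114 or 242, and reversal chow 2 gave 1216. It was 17 with the index as a covariate, 278 in a fit of the 6 arrays compared and 1552 with each probe set as its own feature. In reversal it was 324, and leaving out HFD 1, 2 or 3 gave 99, 154 or 142, and leaving out chow 1, 2 or 3 gave 577, 135 or 195. It was 86 without reversal HFD 1 and CMPF 3, and 0 in a fit of the 6 arrays compared (2054 at an unadjusted p under 0.05). The HFD effect differed for 1452 genes, and for 0 to 2400 with samples left out: 0 without prevention chow 1 (3251 at an unadjusted p under 0.05), 35 without prevention chow 3, 55 without reversal HFD 1, 260, 743 and 776 without prevention HFD 3, 2 and 1, 633, 788 and 2400 without reversal chow 2, 3 and 1, and 2354 without prevention chow 2. It was 217 without reversal HFD 1 and CMPF 3, 0 with the index (1709 unadjusted) and 3120 with each probe set as its own feature. With the replicate block the 4 counts were 0, 547, 256 and 1387, and the calls of Slc16a1 (adjusted p = 0.0605) and Tspan4 (0.0534) for a differing HFD effect were lost. Causes were not tested.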
